A study of Saccharomyces cerevisiae with 39 samples.

Results

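The translation elongation factors of budding yeast are described here as 10 of the 8898 features counted in 39 RNA-seq libraries. The genes were chosen by name for their known role in moving the ribosome along an mRNA. No measured value entered that rule, but earlier results of these data were known when the genes were chosen. They were TEF1 (YPR080W) and TEF2 (YBR118W), which encode eEF1A; EFB1 (YAL003W), TEF4 (YKL081W) and CAM1 (YPL048W), which encode subunits of its exchange factor eEF1B; EFT1 (YOR133W) and EFT2 (YDR385W), which encode eEF2; YEF3 (YLR249W) and HEF3 (YNL014W), which encode eEF3; and ANB1 (YJR047C), which encodes a form of eIF5A. All 10 had counts in each library and were among the 7900 features that passed the filter on low counts over all libraries.

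The 39 libraries came from 13 groups of 3 cultures, grown for 5 h at 37 °C in 10 mL of minimal medium without leucine. Every strain lacked the chromosomal copy of a gene of the RNA exosome, the complex that trims and degrades RNA from the 3′ end, and carried the LEU2 CEN6 plasmid pRS315. In the 5 control groups (RRP4, RRP40, RRP45, RRP46 and RRP6) the plasmid held the wild-type gene, in the 7 missense groups an altered gene, and in rrp6Δ neither. The missense alleles were rrp4-G226D in the RRP4 family, rrp45-I15P in the RRP45 family, rrp40-S87A and rrp40-W195R in the RRP40 family, and rrp46-L127T, rrp46-Q86I and rrp46-L191H in the RRP46 family. The controls are thus deletion strains rescued from a plasmid, and the plasmid copy is the only copy in each rescued strain. The labels name BY4741 as the haploid background of every strain, the MATalpha strains included, although BY4741 itself is a MATa strain. All strains also carried ura3delta0, leu2delta0 and his3delta1. The RRP4 family was MATalpha with lys2delta0 and rrp4delta::NEO. The RRP40 family was MATa with rrp40delta::NEO, and the RRP45 family was MATalpha with rrp45delta::NEO. The RRP46 family was MATalpha with lys2delta0 and rrp46delta::kanMX4. The RRP6 family was MATa with met15delta0 and rrp6delta::kanMX4. The design text calls the 3 cultures of a group biological triplicates, no batch is named in the labels, and they do not say whether the cultures came from separate transformants, so p-values measure the spread between these cultures.

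Each round of elongation begins when eEF1A, bound to GTP, brings an aminoacyl-tRNA to the ribosome. The exchange factor eEF1B reloads eEF1A with GTP, and eEF2 then moves the tRNAs and the mRNA by a codon. Fungi also need eEF3, an ATPase that helps to release the spent tRNA from the exit site. The factor eIF5A, which carries the modified residue hypusine, helps the ribosome through stretches that form peptide bonds slowly. Most of these proteins are very abundant and are made from paired genes that arose by duplication.

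The shallowest library held 17244127 counts, the deepest 53642418, and the median library 35937895. RRP6 stood at 5.59 ± 0.678 CPM (counts per 1000000 counts of the library; SD, n = 3) in rrp6Δ and at 686 ± 89.1 CPM in its control; a missense allele cannot be checked by the level of its gene, which for RRP46 was 506 ± 22.3 CPM in the control and 86.7 ± 10.6 CPM in rrp46-Q86I. STE2, a gene of MATa cells, was at 320 to 610 CPM in libraries of the MATa strains and at 5.90 to 20.4 CPM in those of the MATalpha strains, as the mating types in the genotypes have it. Unless library totals are named, levels below are CPM with TMM factors (scaling factors that centre the fold changes of most features) over all libraries, and fold changes are from a fit of the 6 libraries compared, with TMM factors. A call needed a p under 0.05 in edgeR's quasi-likelihood test after Benjamini-Hochberg adjustment over all features tested. Scaling by library totals in place of TMM factors raised the median of all features on the log2 scale by 0.60 for rrp6Δ, by 0.33 for both rrp4-G226D and rrp40-W195R, and by 0.17 for rrp46-L191H. The share of higher among all calls became 83.7% for rrp6Δ (51.1% with TMM factors), 84.7% for rrp4-G226D (50.1%), 89.0% for rrp40-W195R (49.5%) and 73.8% for rrp46-L191H (50.3%). Each direction below is therefore given under both scalings where they differ.

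The paired genes differ in how well short reads can tell them apart, so the bases that separate them are shown first. In the R64 genome TEF1 lies on chromosome XVI (700594 to 701970, plus strand) and TEF2 on chromosome II (477671 to 479047, plus strand), and each is a coding exon of 1377 bases. Aligned over the coding sequence, they differed at 2 bases, an identity of 99.9%, and both differences fall on the last base of a codon and keep the amino acid. The differences were T762C and T834C, where positions count from 1 at the A of the start codon, with the TEF1 base first. The 31 bases around each, with the differing base in capitals, show how little there is to go by:
TEF1 around position 762: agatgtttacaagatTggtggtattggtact
TEF2 around position 762: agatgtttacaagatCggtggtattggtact
TEF1 around position 834: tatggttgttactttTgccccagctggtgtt
TEF2 around position 834: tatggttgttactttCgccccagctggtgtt
Of all 100-base windows of the TEF1 coding sequence, 86.5% had an identical copy in TEF2.

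EFT1 (chromosome XV, 575098 to 577626, plus strand) and EFT2 (chromosome IV, 1243230 to 1245758, plus strand) each hold 2529 coding bases and differed at 4 of them, an identity of 99.8%. The differences, counted in the same way with the EFT1 base first, were A447G, C882T, C2145T and C2364T, and all keep the amino acid. The first of them reads as follows, with the differing base in capitals:
EFT1 around position 447: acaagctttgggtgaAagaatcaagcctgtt
EFT2 around position 447: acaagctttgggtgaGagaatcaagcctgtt
Of the 100-base windows of EFT1, 83.5% had an identical copy in EFT2. For both pairs, a read is told apart only at those bases or in the untranslated ends, and how the authors treated reads that match several places is not given in the sources used here, so the split between TEF1 and TEF2 and between EFT1 and EFT2 is uncertain. The other pairs differ more: YEF3 and HEF3 were 74.7% identical, TEF4 and CAM1 69.1%, and ANB1 and its partner HYP2 90.9%. None of these pairs shared an identical window of 50 bases, and the longest identical run was 43 bases, in ANB1 and HYP2. How the reads of these pairs were assigned was not tested. CAM1 lies on chromosome XVI (464401 to 465648, plus strand), YEF3 on chromosome XII (636780 to 639914, plus strand), HEF3 on chromosome XIV (606319 to 609453, plus strand) and ANB1 on chromosome X (524908 to 525381, minus strand).

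The region before the start codon was searched on both strands for ACCCNNACA, a short form of the site of Rap1, an activator of many genes of the translation machinery, and for ATTGTTCTC, the core of the site of Rox1, a repressor of genes of low-oxygen growth. In the 500 bases before the ATG, the Rap1-type motif was found in 5.48% of 6002 protein-coding genes and, among the 10 genes, in TEF2 and TEF4. The Rox1-type motif was found in 1.13% of all genes and, among the 10, in ANB1, which held 2 copies. In the narrower window from 250 bases before the ATG to 50 after it, the Rap1-type motif was found in 2.83% of genes and in none of the 10, and the Rox1-type motif in 0.72% of genes and again in ANB1. None of the 10 genes held both motifs, so no match overlapped one of the other motif in them. The window of 500 bases was added after the data were seen. The TEF2 and TEF4 matches and the ANB1 match at 281 bases fall in that window alone. All matches among the 10 genes are shown on the strand of the gene, with the motif in capitals:
ANB1, 281 bases before the ATG (R64 chrX:525639-525677, minus strand): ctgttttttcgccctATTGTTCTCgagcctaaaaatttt
ANB1, 214 bases before the ATG (R64 chrX:525572-525610, minus strand): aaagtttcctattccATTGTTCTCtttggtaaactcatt
TEF2, 435 bases before the ATG (R64 chrII:477221-477259, plus strand): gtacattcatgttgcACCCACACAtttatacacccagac
TEF4, 389 bases before the ATG (R64 chrXI:282487-282525, plus strand, motif on the opposite strand): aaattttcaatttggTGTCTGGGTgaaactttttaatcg
A match is a run of letters, and binding was not measured.

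The 10 genes together took 3.63% to 4.45% of all reads as means of the 5 control groups. Per kilobase of coding sequence, which allows genes to be set beside each other, TEF2 had the highest level in the 15 control libraries with a mean of 10370 CPM per kb, and TEF1 had 5423. YEF3 (2879), EFT2 (2821) and EFB1 (1958) followed, then TEF4 (1020) and EFT1 (931). This order did not hold in each control: in RRP46 EFT2 (3348) lay above YEF3 (3076), and in RRP45 EFT1 (899) lay above TEF4 (888). CAM1 was at 324 CPM per kb. The level of ANB1 was 89.9 CPM per kb on average but ran from 16.0 to 293 between control libraries, and HEF3 was lowest at 10.7. Since only the coding length is used and reads of the near-identical pairs may be split or dropped, the values of TEF1, TEF2, EFT1 and EFT2 are the least certain of these.

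Each mutant was set against the control strain that carries the wild-type form of its gene, to ask what the exosome defect changed. In rrp6Δ, rrp4-G226D and rrp40-W195R, 9 of the 10 genes fell and HEF3 rose with TMM factors. In rrp46-L191H, 5 fell and HEF3 rose, and in rrp46-L127T ANB1 fell and TEF4 rose. No gene of the 10 was called changed in rrp40-S87A, rrp45-I15P or rrp46-Q86I. Over the 8 comparisons, ANB1 was called lower in 5, TEF2, TEF4, CAM1 and EFT2 in 4, and TEF1, EFB1, EFT1 and YEF3 in 3. TEF4 was called higher in 1 and HEF3 in 4. Levels are shares of the RNA of a whole culture, so less of a transcript per cell and fewer cells that make it cannot be told apart.

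These counts stand beside the share of all features that moved. In rrp6Δ 40.9% of the 7828 features tested were called lower and 42.6% higher, and the median log2 fold change was -1.10 over the 10 genes against 0.03 over all features. In rrp4-G226D 35.9% were lower and 36.1% higher, with medians of -0.59 and 0.02. In rrp40-W195R 26.5% were lower and 26.0% higher, with medians of -0.45 and 0.02. In rrp46-L191H 31.0% were lower and 31.4% higher, with medians of -0.12 and 0.00, so its count of 6 of 10 is close to the share of all features called. In rrp46-L127T 2.62% were lower and 2.63% higher. In rrp40-S87A 15.5% of features changed, in rrp46-Q86I 0.515% and in rrp45-I15P 0.0266%. With library totals the counts became 8 lower and 1 higher in rrp6Δ and in rrp4-G226D, 5 lower and 1 higher in rrp40-W195R, 2 lower and 5 higher in rrp46-L191H, and 1 lower in rrp46-L127T. Of all features, 14.4% were then lower and 74.2% higher in rrp6Δ, 12.1% and 66.8% in rrp4-G226D, 7.87% and 63.6% in rrp40-W195R, 16.9% and 47.6% in rrp46-L191H, and 3.22% and 1.88% in rrp46-L127T. The balance of lower and higher calls in rrp46-L191H therefore turned with the scaling. In rrp6Δ and rrp4-G226D each gene kept its direction except ANB1 in rrp6Δ.

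**Figure D1:**
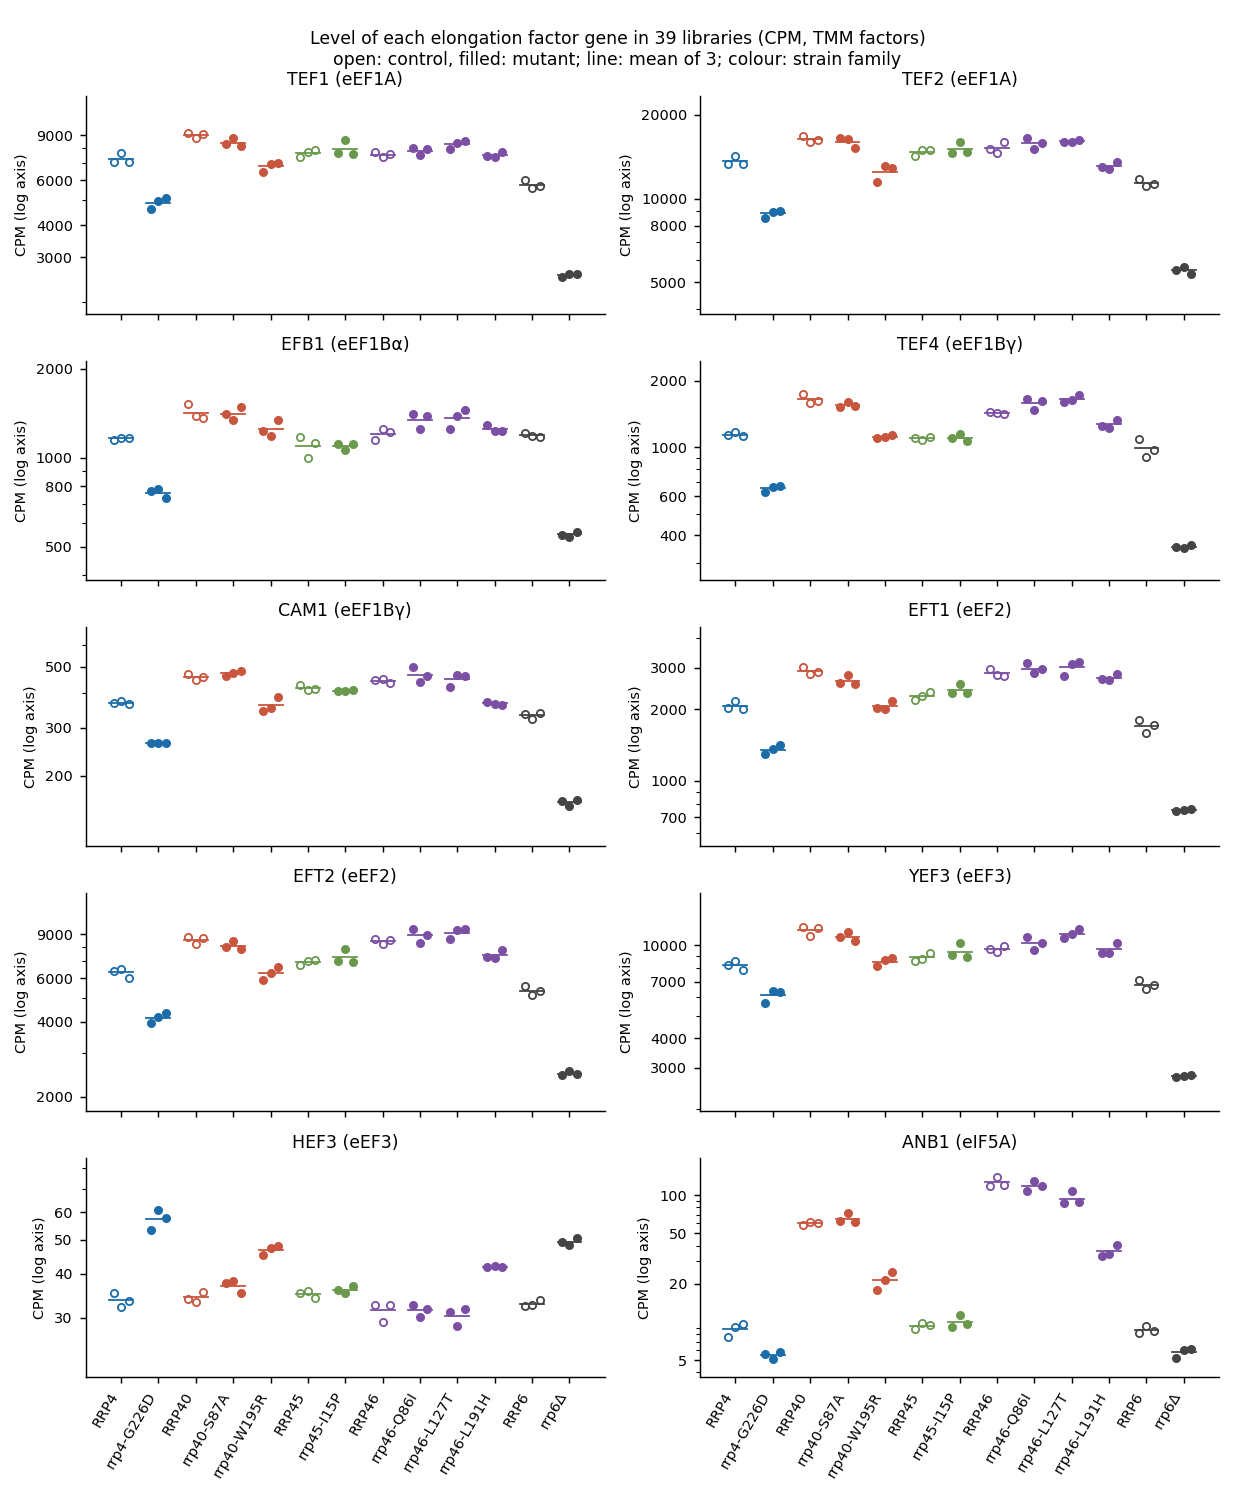
Level of each gene in each of the 39 libraries (y axis, CPM with TMM factors, log axis) by group (x axis), with a line at the mean of 3. With this scaling, in 8 panels the rrp6Δ libraries are lowest and those of rrp4-G226D next; HEF3 runs the other way, and ANB1 ranges from 5.15 to 139 CPM with large steps between the control groups.

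The eEF1A genes were the most abundant of the 10. TEF1 stood at 2506, 2586 and 2583 CPM in the 3 rrp6Δ libraries and at 6012, 5592 and 5723 CPM in the RRP6 control. The groups did not overlap, and the log2 fold change was -1.16 (SE 0.0523, adjusted p 5.07e-12). TEF2 stood at 5533, 5687 and 5381 CPM in rrp6Δ and at 11737, 11087 and 11329 CPM in its control, a log2 fold change of -1.03 (SE 0.0539, adjusted p 3.14e-11). With library totals the changes were -0.56 for TEF1 and -0.43 for TEF2 and both were still called. In rrp4-G226D TEF1 was at 4645, 4967 and 5109 CPM against 7063, 7705 and 7070 CPM in RRP4. TEF2 was at 8559, 8952 and 9047 CPM against 13374, 14276 and 13366 CPM. Every library of the mutant lay below every control library for both genes, with log2 fold changes of -0.56 for TEF1 (SE 0.0524, adjusted p 1.12e-08) and -0.61 for TEF2 (SE 0.0514, adjusted p 2.00e-09), and of -0.23 and -0.28 with library totals.

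In rrp40-W195R TEF1 stood at 6466, 6946 and 7020 CPM and in RRP40 at 9209, 8769 and 9096 CPM. The log2 fold change was -0.43 (SE 0.0652, adjusted p 0.000285), and that of TEF2 was -0.41 (SE 0.0723, adjusted p 0.000718). With library totals these were -0.10 and -0.08 and were not called. In rrp46-L191H TEF1 stood at 7470, 7403 and 7732 CPM, inside the range of 7380 to 7749 CPM in RRP46, while TEF2 stood at 12987, 12824 and 13572 CPM against 15147, 14565 and 16059 CPM. TEF2 was thus lower in each mutant library, with a log2 fold change of -0.22 (SE 0.0586, adjusted p 0.00538), and TEF1 did not pass the test (-0.01, SE 0.0513, adjusted p 0.883). With library totals TEF1 was called higher (0.16, adjusted p 0.00238) and TEF2 was not called (-0.05). Counted as a single feature, which sets the split of reads between the copies aside, TEF1 and TEF2 together changed on the log2 scale by -1.07 with the loss of Rrp6, by -0.59 with rrp4-G226D, by -0.42 with rrp40-W195R and by -0.15 with rrp46-L191H (SE 0.0551, 0.0541, 0.0724 and 0.0589), the last with an adjusted p of 0.0442.

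The share of TEF1 in the reads of the pair was 31.2% to 36.6% over the 39 libraries, with a median of 34.6%. The lowest group was rrp6Δ, with 31.2% to 32.4% against 33.5% to 33.9% in RRP6. The highest was rrp46-L191H, with 36.3% to 36.6% against 32.1% to 33.8% in RRP46. The EFT1 share of the eEF2 pair had the same groups at its ends, with 23.0% to 23.5% in rrp6Δ and 26.7% to 26.9% in rrp46-L191H against 24.3% to 25.6% in RRP46. With 3 libraries against 3, an exact permutation test of such a share cannot reach a two-sided p below 0.10, so none is given. How far the handling of shared reads sets these shares was not tested.

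**Figure D2:**
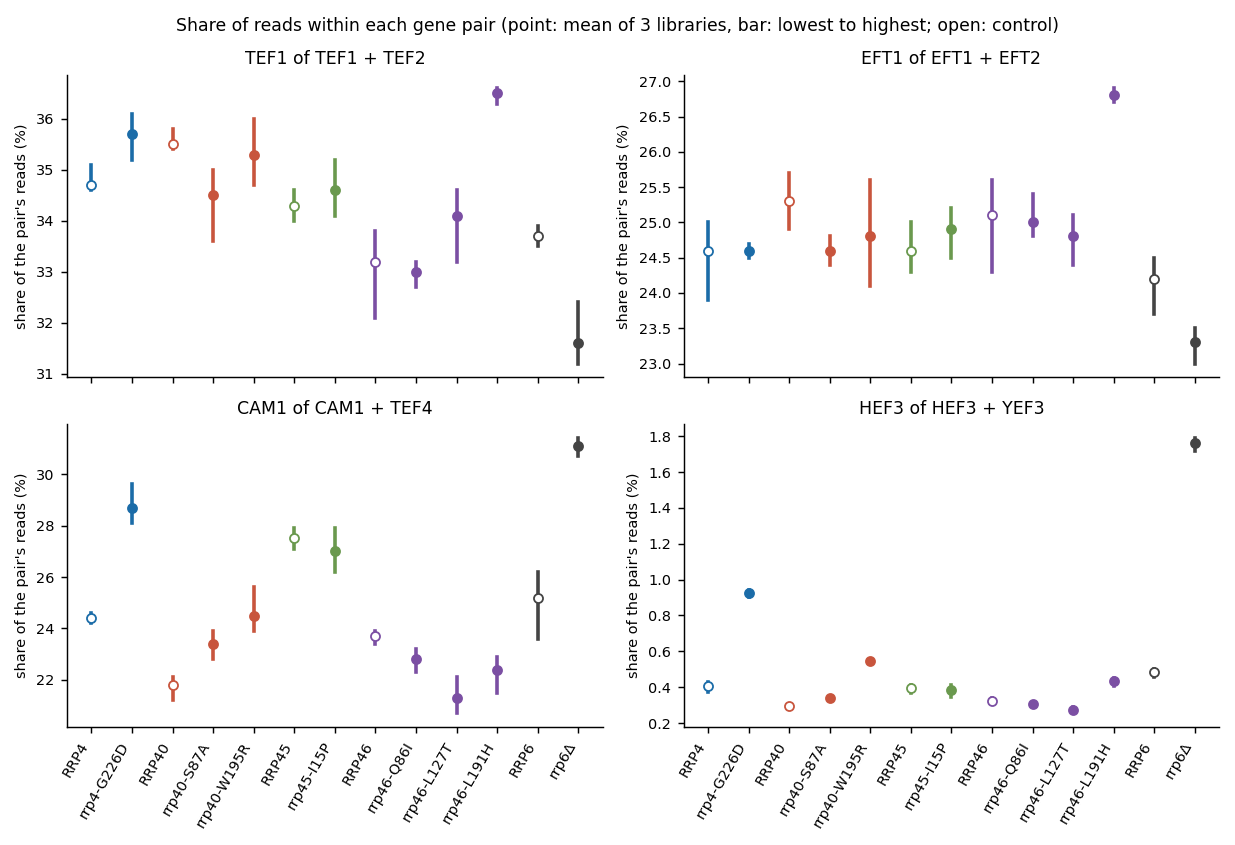
Share of a pair's reads taken by the first-named gene (y axis, percent; axes do not start at 0) in each group (x axis), as the mean of 3 libraries with a bar from the lowest to the highest. The TEF1 and EFT1 shares are lowest in rrp6Δ and highest in rrp46-L191H, the HEF3 share reaches 1.72% to 1.79% in rrp6Δ, and the CAM1 share reaches 30.7% to 31.4% there.

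Of the eEF1B genes, EFB1 encodes the alpha subunit that catalyses the exchange, and TEF4 and CAM1 encode forms of the gamma subunit. TEF4 had the largest falls of the 10 genes in rrp6Δ and in rrp4-G226D. It stood at 354, 352 and 361 CPM in rrp6Δ and at 1088, 908 and 975 CPM in RRP6, and the groups were far apart, with a log2 fold change of -1.47 (SE 0.0586, adjusted p 1.39e-12). In rrp4-G226D it stood at 629, 664 and 672 CPM against 1135, 1171 and 1125 CPM (log2 fold change -0.79, SE 0.0415, adjusted p 2.33e-12). In rrp40-W195R it stood at 1101, 1111 and 1133 CPM against 1751, 1584 and 1624 CPM (-0.59, SE 0.0598, adjusted p 2.01e-05). These 3 falls were also called with library totals, at -0.86, -0.46 and -0.26. In rrp46-L191H TEF4 was at 1255, 1230 and 1333 CPM against 1439, 1431 and 1422 CPM, a fall of -0.17 (SE 0.0456, adjusted p 0.00517) that was lost with library totals (-0.01). In rrp46-L127T it was at 1609, 1645 and 1729 CPM, above each RRP46 library, with a log2 fold change of 0.21 (SE 0.0503, adjusted p 0.0387). That call was lost with library totals, without any 1 of the RRP46 replicates (adjusted p 0.102, 0.134 and 0.0996) and without replicate 2 or 3 of rrp46-L127T (adjusted p 0.117 and 0.156).

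CAM1 stood at 162, 156 and 164 CPM in rrp6Δ and at 336, 322 and 340 CPM in RRP6, a log2 fold change of -1.04 (SE 0.0439, adjusted p 2.49e-12). The changes of CAM1 were -0.48 in rrp4-G226D (SE 0.0365, adjusted p 5.47e-10), -0.36 in rrp40-W195R (SE 0.0580, adjusted p 0.000387) and -0.28 in rrp46-L191H (SE 0.0385, adjusted p 3.82e-05). With library totals they were -0.44, -0.15, -0.03 and -0.11 in these 4 mutants in turn, and the call was lost in rrp40-W195R. The share of CAM1 in the reads of CAM1 and TEF4 was 30.7% to 31.4% in rrp6Δ and 23.6% to 26.2% in RRP6, and 28.1% to 29.6% in rrp4-G226D against 24.2% to 24.6% in RRP4. The difference between the changes of the 2 genes was not tested.

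EFB1 stood at 549, 540 and 562 CPM in rrp6Δ and at 1215, 1181 and 1179 CPM in RRP6, a log2 fold change of -1.10 (SE 0.0467, adjusted p 2.53e-12). In rrp4-G226D it stood at 769, 783 and 733 CPM against 1151, 1168 and 1167 CPM (-0.60, SE 0.0417, adjusted p 1.49e-10). Both falls were called with library totals too, at -0.50 and -0.27. In rrp40-W195R EFB1 was at 1234, 1182 and 1342 CPM against 1515, 1388 and 1366 CPM, a fall of -0.21 (SE 0.0678, adjusted p 0.0250) that was the smallest called there. With library totals it was at 0.13 and was not called (adjusted p 0.0806), and the call was lost without replicate 1 of RRP40 (adjusted p 0.102) and without replicate 1 or 2 of rrp40-W195R (adjusted p 0.0647 and 0.0515). EFB1 was not called in rrp46-L191H (0.05, SE 0.0474, adjusted p 0.352), and with library totals it was called higher there (0.22).

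EFB1 and TEF4 are the genes of the 10 that hold an intron, and each intron carries a C/D box snoRNA, a guide for methylation of rRNA whose ends are trimmed in the nucleus. In R64, EFB1 spans chromosome I from 142174 to 143160, its intron runs from 142254 to 142619, and SNR18 lies within it from 142367 to 142468. TEF4 spans chromosome XI from 282891 to 284455, its intron runs from 283096 to 283421, and SNR38 lies from 283185 to 283279. All lie on the plus strand, and whether reads that fall on both a gene and its snoRNA were counted is not given in the sources used here. In rrp6Δ, where both host genes fell, snR18 stood at 109, 104 and 96.9 CPM against 56.4, 63.4 and 64.8 CPM (log2 fold change 0.76, SE 0.0586, adjusted p 1.76e-08). The snoRNA snR38 stood at 33.3, 30.8 and 41.5 CPM against 17.9, 18.7 and 17.3 CPM (0.99, SE 0.108, adjusted p 1.46e-05). Both snoRNAs were thus higher in each rrp6Δ library while their host genes were lower.

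The 2 snoRNAs parted in rrp46-L191H. There snR38 stood at 50.3, 49.4 and 43.6 CPM against 15.8, 14.0 and 10.4 CPM in RRP46, a log2 fold change of 1.84 (SE 0.135, adjusted p 8.97e-06), while snR18 stood at 81.6, 82.9 and 82.8 CPM against 150, 117 and 144 CPM, a change of -0.73 (SE 0.0834, adjusted p 5.56e-05). In rrp4-G226D snR38 rose by 0.29 (SE 0.0755, adjusted p 0.00172) and snR18 changed by -0.35 (SE 0.0577, adjusted p 2.29e-05), which with library totals was -0.01 and not called. In rrp40-W195R both rose, by 0.60 for snR18 (SE 0.0986, adjusted p 0.000785) and 0.68 for snR38 (SE 0.189, adjusted p 0.0162). In rrp40-S87A snR18 rose by 0.39 (SE 0.0878, adjusted p 0.0146) with EFB1 at -0.00. Among the controls, snR18 was at 117 to 150 CPM in RRP46 and at 41.5 to 64.8 CPM in the other 4, a difference that was not tested.

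**Figure D3:**
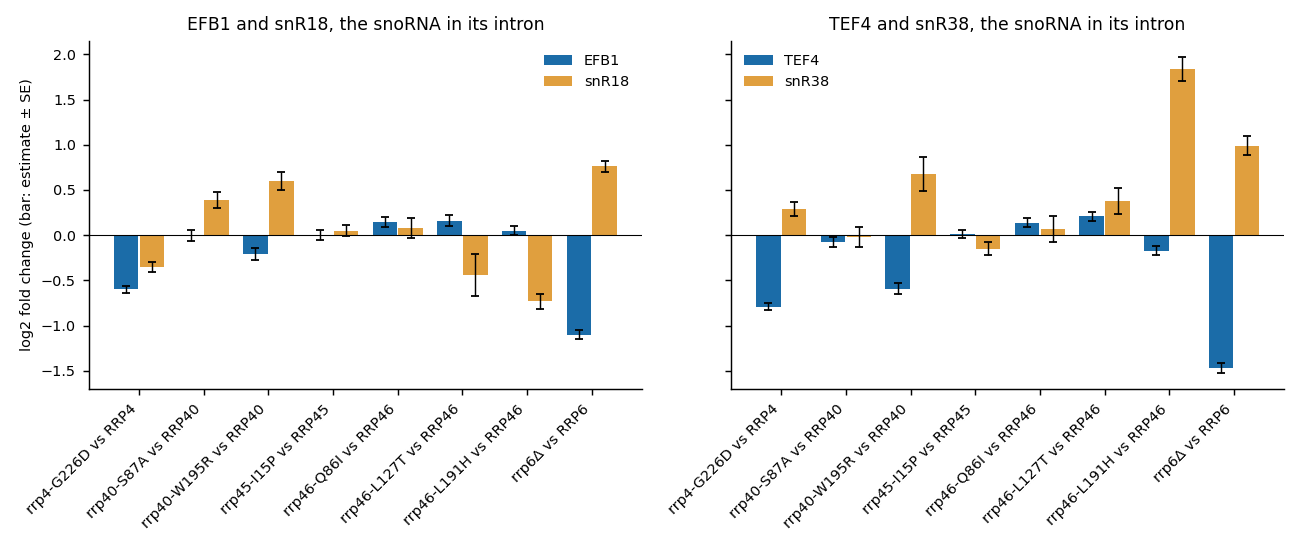
log2 fold change (y axis, estimate with its SE) of a host gene and of the snoRNA in its intron in the 8 comparisons of a mutant with its control (x axis). In rrp6Δ the hosts are at -1.10 and -1.47 and the snoRNAs at 0.76 and 0.99; in rrp46-L191H snR38 is at 1.84 and snR18 at -0.73.

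The eEF2 genes, whose protein carries diphthamide, the residue that diphtheria toxin modifies, fell in the same 3 mutants. EFT2 stood at 2445, 2528 and 2462 CPM in rrp6Δ and at 5583, 5110 and 5323 CPM in RRP6, with a log2 fold change of -1.10 (SE 0.0529, adjusted p 1.17e-11). EFT1 stood at 745, 755 and 758 CPM against 1794, 1586 and 1723 CPM, with a log2 fold change of -1.17 (SE 0.0527, adjusted p 5.43e-12). The groups did not overlap for either copy, and with library totals the changes were -0.49 and -0.56. In rrp4-G226D the changes were -0.59 for EFT2 (SE 0.0509, adjusted p 2.82e-09) and -0.60 for EFT1 (SE 0.0471, adjusted p 8.15e-10). In rrp40-W195R they were -0.47 for EFT2 (SE 0.0689, adjusted p 0.000214) and -0.51 for EFT1 (SE 0.0627, adjusted p 6.55e-05). All of these were also called lower with library totals, at -0.26, -0.27, -0.14 and -0.18.

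In rrp46-L191H EFT2 stood at 7330, 7222 and 7776 CPM against 8636, 8199 and 8566 CPM in RRP46, a fall of -0.19 (SE 0.0540, adjusted p 0.00821). It was lost with library totals (-0.02) and without replicate 2 of rrp46-L191H (adjusted p 0.0522). EFT1 stood at 2687, 2652 and 2828 CPM against 2972, 2783 and 2753 CPM, and the groups overlapped (-0.06, SE 0.0508, adjusted p 0.305). As a single feature, EFT1 and EFT2 changed by -1.11 with the loss of Rrp6, by -0.59 with rrp4-G226D, by -0.48 with rrp40-W195R and by -0.16 with rrp46-L191H (SE 0.0544, 0.0515, 0.0692 and 0.0554), the last with an adjusted p of 0.0259.

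In the 3 mutants where YEF3 fell, HEF3 rose. YEF3 encodes the eEF3 of growing cells, and HEF3 is a copy with little expression in standard growth. YEF3 stood at 2730, 2770 and 2777 CPM in rrp6Δ and at 7099, 6485 and 6743 CPM in RRP6, a log2 fold change of -1.29 (SE 0.0534, adjusted p 2.06e-12). HEF3 stood at 49.2, 48.5 and 50.5 CPM in rrp6Δ and at 32.4, 32.7 and 33.7 CPM in RRP6, a log2 fold change of 0.59 (SE 0.0464, adjusted p 4.46e-09). Each mutant library was thus lower for YEF3 and higher for HEF3, and HEF3 took 1.72% to 1.79% of the reads of the pair in rrp6Δ against 0.455% to 0.502% in RRP6. In rrp4-G226D HEF3 stood at 53.4, 60.9 and 57.7 CPM against 35.2, 32.3 and 33.6 CPM, its largest rise with TMM factors (0.79, SE 0.0546, adjusted p 1.30e-10). YEF3 stood there at 5684, 6381 and 6338 CPM against 8255, 8589 and 7843 CPM (-0.41, SE 0.0544, adjusted p 1.25e-06). With library totals the fall of YEF3 in rrp4-G226D was -0.08 and was not called, and the rise of HEF3 was 1.12.

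In rrp40-W195R HEF3 stood at 45.3, 47.4 and 48.0 CPM against 33.9, 33.4 and 35.6 CPM, a rise of 0.43 (SE 0.0593, adjusted p 0.000147). YEF3 changed there by -0.46 (SE 0.0689, adjusted p 0.000241). In rrp46-L191H HEF3 stood at 41.9, 42.1 and 41.9 CPM against 32.7, 29.2 and 32.6 CPM, a rise of 0.41 (SE 0.0553, adjusted p 2.88e-05), while YEF3 did not pass the test (-0.01, SE 0.0582, adjusted p 0.914). The rises of HEF3 were larger with library totals, at 0.76 and 0.58, and YEF3 was then at -0.13 in rrp40-W195R, still called, and at 0.16 in rrp46-L191H, called higher. HEF3 was called higher in the same 4 mutants under either scaling. In rrp46-L127T YEF3 was at 10769, 11178 and 11739 CPM against 9661, 9359 and 9912 CPM and did not pass (0.21, SE 0.0575, adjusted p 0.0577). YEF3 there passed in DESeq2 (adjusted p 0.00277), in the joint fit (0.0117) and without replicate 1 of rrp46-L127T (0.0176).

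ANB1 varied more than any other of the 10 genes. It encodes the eIF5A form made when oxygen or heme is scarce and repressed through Rox1 in aerated cells, and the ratio of its highest to its lowest group mean was 23.0, against 1.88 for HEF3 and 2.58 to 4.67 for the others. With library totals it was 16.8 for ANB1, 3.04 for HEF3 and 1.45 to 2.49 for the others. Much of this lay between the controls. ANB1 stood at 119, 139 and 120 CPM in RRP46 and at 58.3, 61.7 and 60.5 CPM in RRP40. It stood at 7.60, 9.07 and 9.63 CPM in RRP4, at 8.76, 9.76 and 9.51 CPM in RRP45 and at 8.16, 9.33 and 8.54 CPM in RRP6. RRP4 and RRP46 share MATalpha and lys2delta0 but differ in the gene deleted and its marker, and RRP40 and RRP6 share MATa. What sets the ANB1 levels of the controls apart was not tested. The library with the fewest ANB1 counts had 128.

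ANB1 fell in 5 of the 8 mutants. In rrp46-L191H it stood at 32.9, 34.5 and 40.7 CPM, below each RRP46 library, with a log2 fold change of -1.81 (SE 0.0854, adjusted p 1.16e-07). In rrp40-W195R it stood at 18.0, 21.3 and 24.7 CPM, a change of -1.51 (SE 0.0975, adjusted p 1.47e-06). With TMM factors these were the largest changes of any of the 10 genes against a control, and they were -1.65 and -1.19 with library totals. In rrp4-G226D it stood at 5.55, 5.15 and 5.78 CPM (-0.70, SE 0.0978, adjusted p 2.60e-06, and -0.37 with library totals, still called). In rrp6Δ it stood at 5.22, 5.98 and 6.14 CPM (-0.56, SE 0.0983, adjusted p 6.27e-05), which turned to 0.04 with library totals (adjusted p 0.695). In rrp46-L127T it stood at 87.1, 107 and 87.8 CPM (-0.43, SE 0.0874, adjusted p 0.0261, and -0.45 with library totals). The rrp46-L127T call was lost without any 1 of the RRP46 replicates (adjusted p 0.0540, 0.0771 and 0.0553) and without replicate 3 of the mutant (0.0830). ANB1 was at 108 to 129 CPM in rrp46-Q86I, at 61.1 to 72.6 CPM in rrp40-S87A and at 9.09 to 11.4 CPM in rrp45-I15P, and none of these passed the test.

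HYP2 (YEL034W), which encodes the eIF5A form of aerated cells, was listed at 0 in all 39 libraries. In the shallowest library a count of 0 allows up to 0.174 CPM by counting error, taking 3 counts as the limit. Of 6007 protein-coding features 255 were at 0 throughout, so the 0 was not read as absence of the transcript, and no ratio of ANB1 to HYP2 is given. DYS1 and LIA1, the enzymes that make hypusine on eIF5A, were measured, and both were called lower in 4 mutants with TMM factors. In rrp6Δ DYS1 stood at 95.7, 94.8 and 93.8 CPM against 229, 217 and 210 CPM (log2 fold change -1.20, SE 0.0434, adjusted p 5.30e-13). LIA1 stood at 82.5, 85.2 and 84.0 CPM against 209, 199 and 198 CPM (-1.26, SE 0.0411, adjusted p 2.34e-13). In rrp46-L191H they changed by -0.20 and -0.19 (adjusted p 0.00309 and 0.00213), where ANB1 changed by -1.81, and both calls were lost with library totals (-0.03 and -0.02). The call of LIA1 in rrp40-W195R (-0.38) was also lost with library totals (-0.05, adjusted p 0.402).

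**Figure D4:**
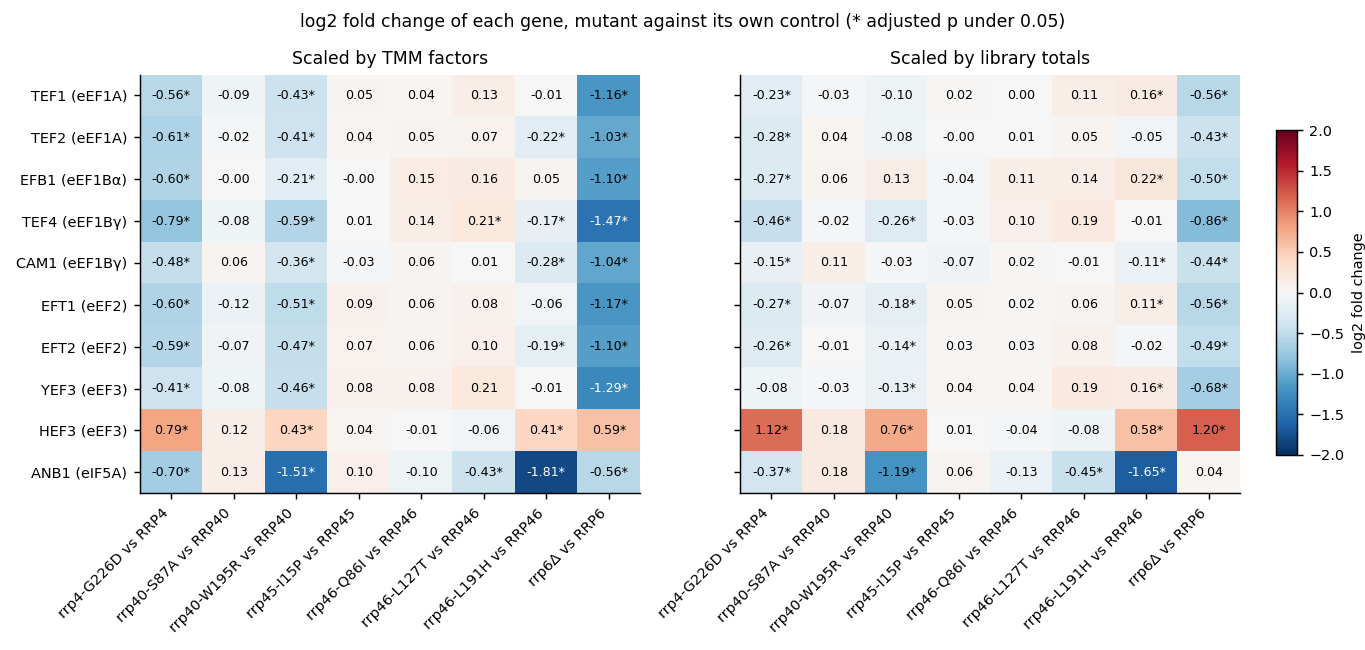
log2 fold change of each gene (y axis, by role) in each mutant against its own control (x axis), scaled by TMM factors on the left and by library totals on the right; colour and number give the value, and an asterisk marks an adjusted p under 0.05. HEF3 is called higher in the same 4 mutants on both sides, ANB1 reaches -1.81 on the left, and the rrp46-L191H calls go from 5 lower and 1 higher on the left to 2 lower and 5 higher on the right.

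Where no gene was called, the estimates were small. In rrp40-S87A the 8 genes other than HEF3 and ANB1 had log2 fold changes of -0.12 to 0.06 (SE 0.0464 to 0.0633), in rrp45-I15P of -0.03 to 0.09 (SE 0.0360 to 0.0617) and in rrp46-Q86I of 0.04 to 0.15 (SE 0.0516 to 0.0605). At an unadjusted p under 0.05 the counts were 1 (EFT1) in rrp40-S87A, 0 in rrp45-I15P and 2 (EFB1 and TEF4) in rrp46-Q86I. The share of all features under that unadjusted threshold is not given here, so these counts have no background beside them. DESeq2 also called none of the 10 in these 3 comparisons.

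Alleles of RRP40 and of RRP46 were also set against one another. Against rrp40-S87A, rrp40-W195R had 8 of the 10 genes lower and HEF3 higher, where 20.2% of all features were called lower and 18.6% higher. ANB1 was 3.09 times lower (log2 difference -1.63, SE 0.108, adjusted p 2.47e-06) and TEF4 1.41 times lower (-0.50, SE 0.0594, adjusted p 8.42e-05), and EFB1 was not called (-0.19, adjusted p 0.0505). With library totals ANB1, CAM1 and TEF4 were lower and HEF3 higher, where 5.89% of features were lower and 57.4% higher.

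Against rrp46-Q86I, rrp46-L191H had TEF2, EFT2, TEF4, CAM1 and ANB1 lower and HEF3 higher, where 31.8% of all features were lower and 32.5% higher. Against rrp46-L127T it had the same 5 and YEF3 lower and HEF3 higher, where 25.9% were lower and 25.6% higher, and the call of YEF3 (-0.23, SE 0.0655, adjusted p 0.0115) was lost without replicate 1 or 2 of rrp46-L191H (0.0561 and 0.0606). The ANB1 differences were -1.72 (SE 0.0967, adjusted p 3.79e-06) and -1.39 (SE 0.102, adjusted p 7.60e-06). With library totals the counts were 3 lower and 4 higher against rrp46-Q86I, where 14.7% of features were lower and 53.8% higher, and 2 lower and 1 higher against rrp46-L127T, where 10.3% were lower and 48.2% higher. Between rrp46-L127T and rrp46-Q86I none of the 10 was called, where 0.604% of features changed. At an unadjusted p under 0.05 there was 1 gene, ANB1 (-0.34, adjusted p 0.147). The share of all features at that unadjusted p is not given here. DESeq2 called 1 of the 10.

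Whether the effect of a missense allele differed from that of the loss of Rrp6 was tested as the difference of the 2 effects over the 12 libraries of both families. For rrp4-G226D minus rrp6Δ, 8 genes were called higher, by 0.39 (TEF2) to 0.85 (YEF3), and ANB1 and HEF3 were not called, where 27.2% of all features were called higher and 21.4% lower. For rrp40-W195R minus rrp6Δ, the same 8 were higher by 0.61 to 0.89 and ANB1 (-0.96, SE 0.138, adjusted p 1.10e-05) and HEF3 (-0.17, SE 0.0716, adjusted p 0.0493) lower, where 33.3% were higher and 28.1% lower. For rrp46-L191H minus rrp6Δ, the 8 were higher by 0.76 to 1.29 and ANB1 (-1.26, SE 0.130, adjusted p 1.56e-07) and HEF3 (-0.19, SE 0.0710, adjusted p 0.0251) lower, where 35.7% were higher and 35.6% lower. A positive difference means that the allele's log2 fold change lay above that of rrp6Δ; EFB1, TEF1, EFT1 and YEF3 were not called lower in rrp46-L191H. The 8 genes were called higher in all 3 differences with library totals as well, where 11.6%, 19.3% and 18.3% of all features were called higher and 46.9%, 45.4% and 59.9% lower for rrp4-G226D, rrp40-W195R and rrp46-L191H. ANB1 was then called lower for rrp4-G226D too (-0.41), and the HEF3 differences were larger, at -0.44 (adjusted p 5.63e-05) for rrp40-W195R and -0.62 (adjusted p 2.52e-07) for rrp46-L191H. With TMM factors the HEF3 difference for rrp40-W195R was lost in 11 of the 12 fits that left out a library (adjusted p 0.0503 to 0.136). That for rrp46-L191H was lost in 4 such fits, without RRP46 replicate 1 or 3 (0.0658 and 0.0676), RRP6 replicate 1 (0.0638) or rrp6Δ replicate 3 (0.0610). These 3 differences share the RRP6 and rrp6Δ libraries and are not independent of each other, and the families differ in background as well as in the exosome gene.

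**Figure D5:**
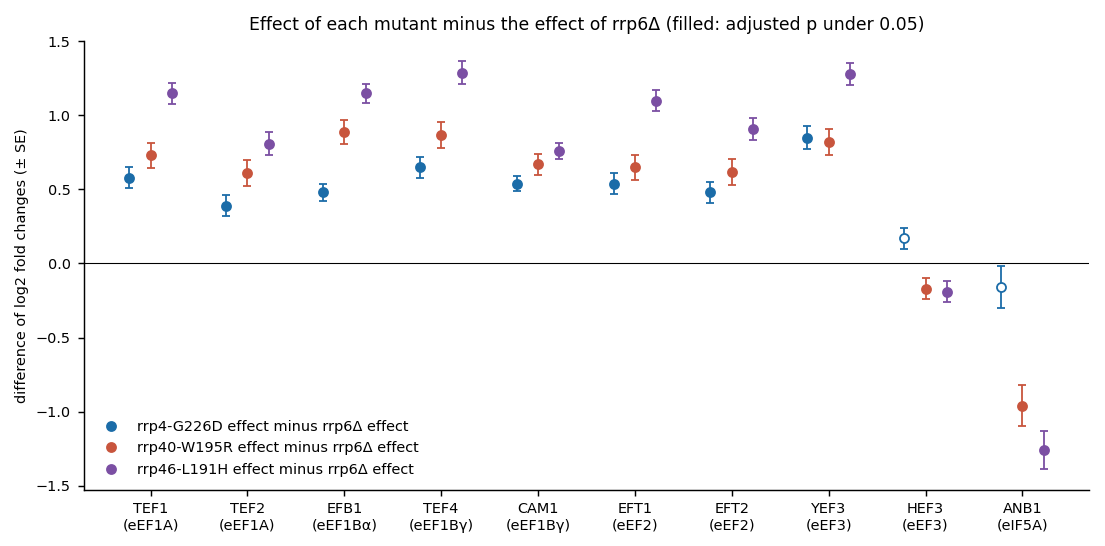
Difference between the log2 fold change of a mutant and that of rrp6Δ, each against its own control (y axis, estimate with its SE), for each gene (x axis); filled points have an adjusted p under 0.05. The 8 abundant genes lie between 0.39 and 1.29, and ANB1 lies at -0.96 and -1.26 for rrp40-W195R and rrp46-L191H.

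The 5 control groups carry no mutant allele, and they were compared with each other to show how far these genes differ between strains. Of the 10 genes, 9 differed among the controls, and HEF3 did not pass (adjusted p 0.142), where 88.6% of all features differed; with library totals all 10 did, where 92.2% of features differed. With TMM factors the RRP6 control was the lowest of the 5 for TEF1, TEF2, TEF4, CAM1, EFT1, EFT2 and YEF3, but with library totals TEF4 was lowest in RRP45 and CAM1 in RRP4. RRP45 was the lowest for EFB1 under both. The range of log2 level between controls was 0.40 for EFB1 to 0.77 for YEF3 among the 8 abundant genes, 0.14 for HEF3 and 3.86 for ANB1. With library totals it was 0.16 for CAM1 to 0.49 for TEF4 among the 8, 0.33 for HEF3 and 3.73 for ANB1. As an example, the levels of TEF1 were 5592 to 6012 CPM in RRP6 and 8769 to 9209 CPM in RRP40. The effect of a mutant was therefore measured against its own control, and alleles were set against one another only within a family.

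Across all 13 groups, the order of the levels with TMM factors had the same lowest groups for 8 genes. The groups come from strain families whose controls differ, so family and mutation cannot be told apart in this order. The share of all features with the same order is not given here. The lowest mean was in rrp6Δ and the next in rrp4-G226D for each of the 8 genes other than HEF3 and ANB1, and the ranges of those 2 groups did not overlap with each other. RRP6 came next for 7 of the 8, and rrp45-I15P for EFB1. With library totals rrp6Δ was still the lowest for each of the 8, but RRP6 (7335 CPM) came before rrp4-G226D (7560 CPM) for YEF3, and the ranges of rrp6Δ (891 to 930 CPM) and rrp4-G226D (892 to 966 CPM) overlapped for EFB1. With TMM factors, higher up, neighbours in the order were mostly not apart: of 12 steps between neighbouring groups, the ranges of 3 libraries were clear of each other in 2 for TEF2, 3 for EFB1 and YEF3, 4 for TEF1 and EFT1, and 5 for TEF4, CAM1 and EFT2. For HEF3 the order with TMM factors ended with rrp46-L191H (42.0 CPM), rrp40-W195R (46.9), rrp6Δ (49.4) and rrp4-G226D (57.3), each clear of the group below it, and the 9 groups from 30.5 to 37.0 CPM were not clear of their neighbours. With library totals rrp6Δ was the highest for HEF3 (80.0 to 83.5 CPM), clear of rrp4-G226D (67.0 to 74.7 CPM). For ANB1, 6 of the 12 steps were clear under either scaling.

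As a description over the 13 group means of log2 CPM with TMM factors, the 8 genes were close to each other, with Pearson r of 0.93 to 1.00 (median 0.97) over their 28 pairs. HEF3 had r of -0.74 to -0.62 with the 8, and ANB1 0.61 to 0.78. These points share strain families and scaling, and no p is given. Among 4961 other protein-coding features with a mean of at least 10 CPM, those most like the 2 eEF2 genes were SSB2 (r 0.998 with EFT1 and 0.999 with EFT2) and SSB1 (0.997 and 0.996), chaperones that bind nascent chains on the ribosome. Those most like TEF1 were TIF2 (0.995), which encodes the helicase eIF4A, and PSG1 (0.995), and those most like TEF2 were TIF1 (0.997), the other eIF4A gene, and GUS1 (0.996), glutamyl-tRNA synthetase. TEF4 was most like SCP160 (0.993) and ZUO1 (0.992), CAM1 most like VMA3 (0.995) and RPL2A (0.994), EFB1 most like PMT2 (0.989) and OST1 (0.983), and YEF3 most like KES1 (0.994) and GSP1 (0.991). HEF3 was most like MPH3 (0.966) and IRC15 (0.961). ANB1 was most like HEM13 (0.979), which encodes a heme synthesis enzyme that uses oxygen and whose group means ran from 29.4 to 477 CPM, and SWI4 (0.973).

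Genes that modify, load or act beside the elongation factors were taken from a list of 34, of which HYP2 and DPH5 were not tested in any comparison. In rrp6Δ 29 of 32 tested were lower and 3 higher, with a median log2 fold change of -0.60, and in rrp4-G226D 25 of 32 were lower and 2 higher, with a median of -0.32. In rrp40-W195R 13 of 31 were lower and 9 higher, and in rrp46-L191H 8 were lower and 15 higher. Of all features, 40.9% were lower and 42.6% higher in rrp6Δ, and 35.9% and 36.1% in rrp4-G226D. For rrp40-W195R these shares were 26.5% and 26.0%, and for rrp46-L191H 31.0% and 31.4%. With library totals the counts of the list were 14 lower and 12 higher for rrp6Δ and 12 and 9 for rrp4-G226D. They were 3 and 19 for rrp40-W195R and 3 and 21 for rrp46-L191H, so the split of this list depended on the scaling in all 4. Of all features, 14.4% were then lower and 74.2% higher in rrp6Δ, and 12.1% and 66.8% in rrp4-G226D. The shares were 7.87% and 63.6% in rrp40-W195R, and 16.9% and 47.6% in rrp46-L191H. In rrp40-S87A 2 of the list were lower and 7 higher with TMM factors, where 15.5% of all features changed. In rrp46-L127T 1 was lower and 4 higher, where 2.62% and 2.63% of all features were. In rrp45-I15P and rrp46-Q86I none was called, where 0.0266% and 0.515% of all features changed.

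By role, the 6 tested genes for making diphthamide on eEF2 were all lower in rrp6Δ and all higher in rrp46-L191H with TMM factors. Of all features, 40.9% were lower in rrp6Δ and 31.4% higher in rrp46-L191H. DPH2, a subunit of the enzyme of the first step, changed by -0.73 (adjusted p 2.52e-10) and 0.35 (adjusted p 1.39e-05) in these mutants, and by -0.12 and 0.52 with library totals, both still called. KTI11, which works with it, changed by -0.33 in rrp6Δ (adjusted p 2.01e-05) and by 0.41 in rrp46-L191H (adjusted p 0.00228). With library totals KTI11 was called higher in rrp6Δ (0.28, adjusted p 0.000258). Among the methyltransferases of elongation factors, 5 of 7 were lower and 2 higher in rrp6Δ with TMM factors, where 40.9% and 42.6% of all features were. EFM3, which methylates eEF2, rose in rrp4-G226D (0.74), rrp40-W195R (0.55), rrp46-L191H (0.85) and rrp6Δ (1.20), with SE of 0.115, 0.128, 0.116 and 0.0879 and adjusted p of 1.00e-05, 0.00418, 3.31e-05 and 1.97e-09, and rose with library totals too. EFM2, which also methylates eEF2 and eEF3, rose in rrp40-W195R (0.57, SE 0.0560, adjusted p 1.77e-05) and in rrp46-L191H (0.60, SE 0.0547, adjusted p 1.04e-06). It changed by -0.39 in rrp6Δ, where library totals gave 0.21, called higher (adjusted p 0.000214).

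Of the chaperones and regulators, all 7 were lower in rrp6Δ and in rrp4-G226D with TMM factors, where 40.9% and 35.9% of all features were. HGH1, a chaperone of eEF2, changed by -0.75 in rrp6Δ (SE 0.0422, adjusted p 7.47e-11; -0.15 with library totals, still called) and by 0.33 with rrp46-L191H (SE 0.0553, adjusted p 0.000167). CNS1, which works with it, rose in rrp40-S87A (0.53, SE 0.0543, adjusted p 6.00e-05) and rrp40-W195R (0.50, SE 0.0631, adjusted p 8.19e-05) and changed by -0.57 in rrp6Δ, where library totals gave 0.03. Of the termination factors, rescue factors and GTPase relatives, all 7 were lower in rrp6Δ with TMM factors, where 40.9% of all features were lower. SUP45, the release factor eRF1, changed by -1.05 (SE 0.0451, adjusted p 3.04e-12) and HBS1, a relative of eEF1A that rescues stalled ribosomes, by -0.74 (SE 0.0398, adjusted p 4.55e-11), and both were called lower with library totals (-0.45 and -0.14). Of the mitochondrial elongation factors, TUF1, the mitochondrial relative of eEF1A, fell in rrp6Δ (-1.37, SE 0.0483, adjusted p 4.05e-13) and rrp4-G226D (-1.11, SE 0.0407, adjusted p 1.73e-14), under both scalings, while MEF2 rose in both (0.65 and 0.60, SE 0.0535 for each, adjusted p 8.44e-09 and 4.63e-09), also under both.

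In the authors' deposited tables of the same 8 comparisons, which give their own adjusted p, the number of the 10 genes under 0.05 was 9 lower and 1 higher in rrp6Δ, rrp4-G226D and rrp40-W195R, 5 lower and 1 higher in rrp46-L191H, and 0 in rrp40-S87A, rrp45-I15P and rrp46-Q86I. The authors' deposited table for rrp46-L127T listed ANB1 as lower (-0.38, adjusted p 0.000252) and 4 genes as higher, which were TEF4 (0.20), YEF3 (0.19), EFB1 (0.14) and TEF1 (0.12). These tables are another analysis of this same series, so a match with the counts above is not an independent repeat. The share of all features under 0.05 in them is not given here.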

How the data were processed

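Total RNA from 39 cultures was depleted of rRNA and sequenced, per the labels' protocols. The authors deposited whole-number counts per feature, and the file headers name alignment files with duplicates marked. Per the submitters' processing notes the tools were STAR, featureCounts 1.22.2, StringTie 2.1.7 and DESeq2 1.38.1 on build R64, with no role or order given. Whether counting used strand, and how it treated reads matching several places or features, is not given in the sources used here. The authors' 8 deposited tables of comparisons hold a mean normalised signal, a log2 fold change and a p-value per gene, and were used only where named.

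Counts were tested as deposited with edgeR 4.0.16 in R 4.3.3 (filterByExpr, TMM, robust quasi-likelihood fit, two-sided, Benjamini-Hochberg over all features tested), on the 6 libraries compared, on 12 for a difference of effects and on 15 for the controls. SE is the size of the log2 fold change over the square root of F. Library totals were 17244127 to 53642418 counts, and the lowest count of any of the 10 genes in a library was 128, for ANB1. Alternatives were library totals, DESeq2 1.42.0, no filter, a replicate block, paralogs summed, a joint fit and each library left out. The code was tested on simulated data. Coding sequences and promoters were read from the RefSeq R64 genome with Python 3.11.15 and Biopython 1.88; the window of 500 bases was added after the data were seen. The text names all 10 genes, HYP2 and both snoRNAs, the 2 genes of each list of partners called in most comparisons, and the 2 genes most like each of the 10. The genes and lists were chosen with earlier results of these data known. No library was left out, and no library pair held identical counts.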

Additional observations from a re-analysis of the deposited data

Results flagged for a closer look

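The effects of a missense allele and of the loss of Rrp6 on the same gene differed between strain families in 28 cases, by edgeR's quasi-likelihood test of the difference itself over 12 libraries. The values are the log2 fold change of the allele against its control minus that of rrp6Δ against RRP6, so a positive value means that the allele's change lay above that of rrp6Δ. The 3 sets share the RRP6 and rrp6Δ libraries. Of the 10 genes, 8 were called for rrp4-G226D and all 10 for rrp40-W195R and for rrp46-L191H. Of all features, 27.2% were called higher and 21.4% lower for rrp4-G226D. The shares were 33.3% and 28.1% for rrp40-W195R, and 35.7% and 35.6% for rrp46-L191H.

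For rrp4-G226D the difference was largest for YEF3, at 0.85 (SE 0.0762, adjusted p 1.23e-08), and smallest for TEF2, at 0.39 (SE 0.0717, adjusted p 0.000119). Between them lay TEF4 at 0.65, TEF1 at 0.58, EFT1 and CAM1 at 0.54, and EFB1 and EFT2 at 0.48, with adjusted p from 4.69e-08 to 1.25e-05.

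For rrp40-W195R the difference was largest for EFB1 among the positive values, at 0.89 (SE 0.0817, adjusted p 4.76e-08), followed by TEF4 at 0.87 and YEF3 at 0.82. TEF1 was at 0.73, CAM1 at 0.67, EFT1 at 0.65, EFT2 at 0.62 and TEF2 at 0.61, with adjusted p of at most 1.13e-05. ANB1 was at -0.96 (SE 0.138, adjusted p 1.10e-05), a larger fall than in rrp6Δ, and HEF3 at -0.17 (SE 0.0716, adjusted p 0.0493), a smaller rise. The mean of ANB1 was 8.67 CPM in RRP6 against 60.2 CPM in RRP40, and its change in rrp6Δ was 0.04 with library totals. The HEF3 call was lost in most fits that left out a library. With library totals the differences were -1.23 for ANB1 and -0.44 for HEF3.

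For rrp46-L191H the differences were 1.29 for TEF4 (SE 0.0769, adjusted p 1.45e-11), 1.28 for YEF3, 1.15 for EFB1 and TEF1, 1.10 for EFT1, 0.91 for EFT2, 0.81 for TEF2 and 0.76 for CAM1, with adjusted p of at most 1.25e-08. ANB1 was at -1.26 (SE 0.130, adjusted p 1.56e-07) and HEF3 at -0.19 (SE 0.0710, adjusted p 0.0251), a call lost in some fits that left out a library. With library totals these differences were -1.70 and -0.62. What sets the families apart was not tested, since background and exosome gene cannot be told apart in this design.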

How the results depend on the processing

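Library totals had the largest effect. They lowered the number of genes called to 6 in rrp40-W195R (10 with TMM factors), 1 in rrp46-L127T (2), 4 in rrp40-W195R against rrp40-S87A (9) and 3 in rrp46-L191H against rrp46-L127T (7). They turned EFB1 in rrp40-W195R to 0.13, TEF1, EFT1 and YEF3 in rrp46-L191H to 0.16, 0.11 and 0.16, and ANB1 in rrp6Δ to 0.04. Of the 94 fold changes followed here, mostly those called with TMM factors, 69 kept their direction and side of the threshold. Another 21 lost the call and 4 gained one (5 of these with a change of sign). Beyond these 94, library totals turned EFB1, YEF3 and TEF1 in rrp46-L191H against rrp46-Q86I to 0.11, 0.12 and 0.16, called higher. They also gave ANB1 a call for rrp4-G226D minus rrp6Δ (-0.41, and -0.16 with TMM factors). Group levels moved by over 1 SD in 105 of 130 cases. The other large dependence was on single libraries. In rrp46-L127T the count was 0 to 4 with a library left out and 4 in the joint fit. It was 0 without RRP46 replicate 1, 2 or 3 or rrp46-L127T replicate 3, 1 without its replicate 2 and 4 without its replicate 1. Between rrp46-L127T and rrp46-Q86I the count of 0 became 1 in DESeq2 and in the joint fit, and 0 to 1 with a library left out (1 without rrp46-L127T replicate 2). TEF1 in rrp46-L191H, uncalled at -0.01, ran from -0.03 to 0.01 with a library left out and changed sign without RRP46 replicate 1 (0.01) or rrp46-L191H replicate 2 (0.00438), and YEF3, also at -0.01, ran from -0.06 to 0.02 and changed sign without RRP46 replicate 3 (0.01) or rrp46-L191H replicate 1 (0.01) or 2 (0.02). Against their controls, the counts were 10 in every fit with a library left out of rrp4-G226D and rrp6Δ, 9 to 10 in rrp40-W195R and 5 to 6 in rrp46-L191H. Between alleles, the count for rrp46-L191H against rrp46-L127T was 7 with all libraries and 6 to 10 with a library left out. It was 9 in DESeq2, in the joint fit and with a replicate block. For rrp46-L191H against rrp46-Q86I it was 6 with all libraries and 6 to 8 with a library left out. Without the filter, the HEF3 difference between rrp40-W195R and rrp6Δ was lost (adjusted p 0.0607). Replicate numbers did not pair the samples (correlations of same-numbered deviations from -0.151 to 0.103); with a replicate block the count was 1 in rrp46-L127T, where TEF4 was lost (adjusted p 0.0540), and 1 between rrp46-L127T and rrp46-Q86I. ANB1 in rrp4-G226D, RRP4, RRP6 and rrp6Δ is the value most limited by depth.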
